A study of Bos taurus with 56 samples.

Results

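The GADD45 family, GADD45A, GADD45B and GADD45G, was followed across the epithelium of the bovine oviduct. The members were taken by gene symbol, and all 3 were found among the 31903 genes of the deposited table. They were chosen by their measured differences in counts between the sides of the isthmus, so those differences are described without a test. Epithelial cells were scraped from the ampulla and the isthmus of both oviducts, the ipsilateral oviduct being on the side of the corpus luteum (CL), on Day 3 after synchronized estrus. The animals were Holstein females in 3 metabolic groups, namely 5 nulliparous heifers, 5 primiparous cows that were dried off at calving and never milked (non-lactating) and 4 primiparous cows milked after calving (lactating), with both groups of cows about 60 days post-partum. All had received a progesterone device, a prostaglandin analogue and a GnRH analogue, and none was inseminated. This gave 56 RNA-seq libraries in 12 conditions, 1 per animal, region and side.

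GADD45 proteins (growth arrest and DNA damage) are small acidic proteins without an enzyme activity of their own that cells make under stress. They bind and activate MAP3K4, a kinase upstream of p38 and JNK, and they bind CDK1, the kinase that partners with cyclin B1 at entry into mitosis, as well as the replication clamp PCNA and the cell cycle inhibitor CDKN1A. GADD45A is a classical target of the tumour suppressor p53, GADD45B is induced by TGF-beta and NF-kappaB signalling, and GADD45G is induced by cytokines. Family members have also been linked to active DNA demethylation through the TET and base excision repair enzymes. In the oviduct the ampulla is the site of fertilization, and the isthmus holds the sperm reservoir and receives the early embryo.

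Levels are given as CPM, the normalised read count per library after TMM scaling, with the SD between libraries. A mean over a whole region counts both sides of each animal. No value per transcript length was used, so levels of different members are not compared. Counts on genes ranged from 1901454 to 6836850 per library (median 4931502.5). The keratin and junction genes that define epithelium were present in every library, as were the markers of ciliated cells. Of the 7 smooth muscle markers found, TAGLN, CNN1 and ACTG2 were at 0 in 45, 44 and 35 of the 56 libraries, while ACTA2 (median 9.29 CPM), DES (1.76 CPM) and SYNM (88.9 CPM) were at 0 in none and MYH11 had a median of 29.6 CPM in the isthmus and 1.03 CPM in the ampulla. The haemoglobin genes HBB and HBA were at 0 in all. Since scraped epithelium is a mixture of cells, fewer cells of a type and less RNA per cell cannot be told apart. In 4 libraries, all from the ipsilateral ampulla, the animal number in the table went against the expression profile. The library labelled heifer B resembled the other libraries of non-lactating cow B, and the library labelled non-lactating cow B resembled those of heifer B. A library of the non-lactating group carried the number of lactating cow B but resembled non-lactating cow C, and a library of the lactating group carried the number of non-lactating cow C but resembled lactating cow B. These libraries were kept in the groups of their labels, and they were left out of counts of animals. Means and SDs of the ampulla include them, and the differences of the members between regions and between sides that include them are also given without them.

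**Figure D1:**
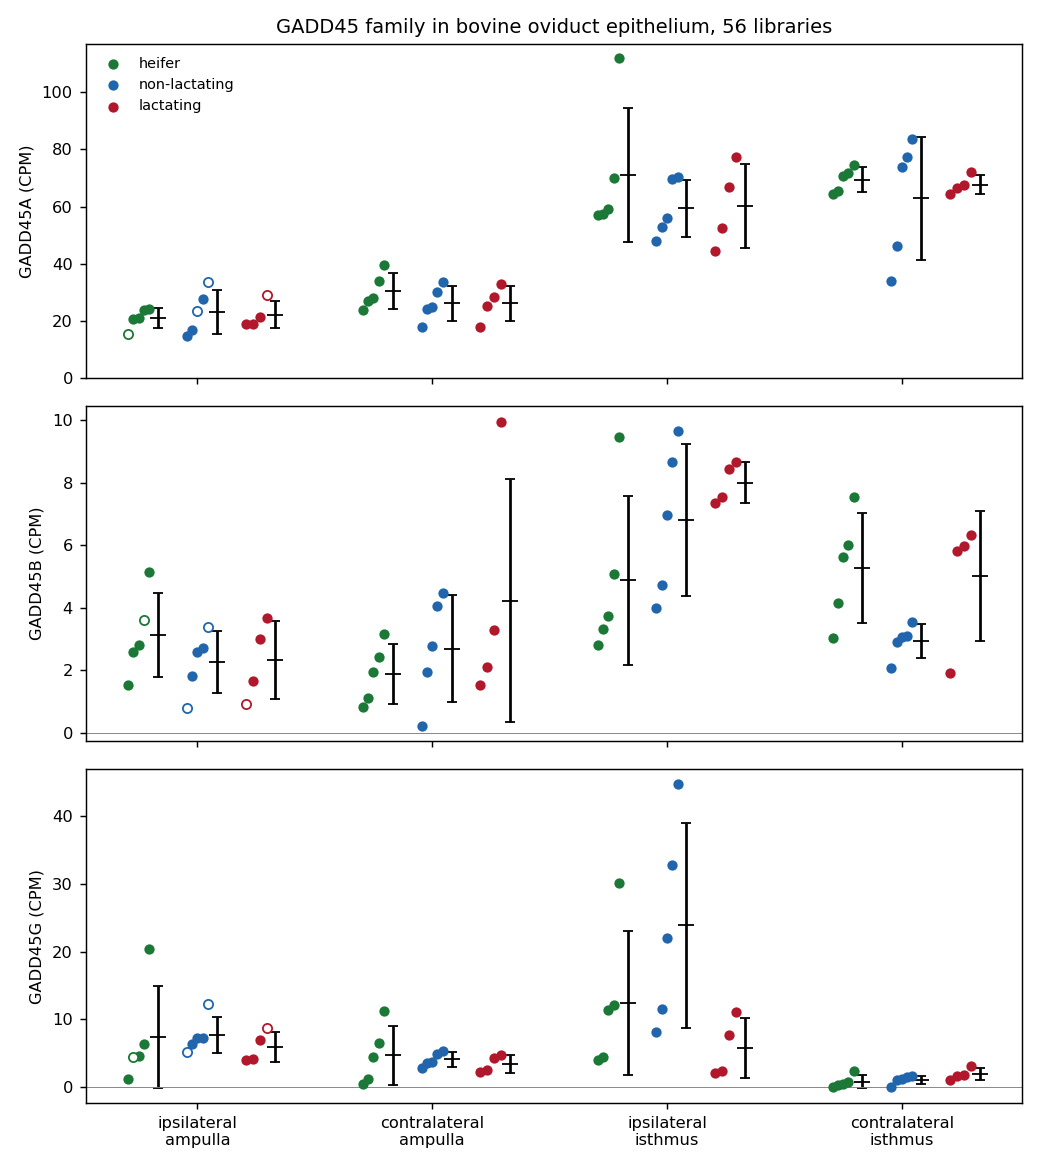
CPM of GADD45A, GADD45B and GADD45G (y axes, linear) in all 56 libraries, by tissue (x axis) and metabolic group (colour). Points are libraries, drawn in order of their value, bars are the mean and SD of each condition, and open circles are the 4 libraries whose animal number went against their profile. GADD45A stood at 34.2 to 111.9 CPM in the isthmus and 14.8 to 39.6 CPM in the ampulla, and GADD45G was at 3.11 CPM or below in all contralateral isthmus libraries.

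GADD45A, the p53 target of the family, separated the regions. Its mean was 65.2 ± 14.6 CPM in the isthmus and 25.0 ± 6.22 CPM in the ampulla (SD, n = 28 libraries each). Of the 28 isthmus libraries 27 lay above the highest ampulla library, contralateral heifer D at 39.6 CPM, and the exception was the contralateral isthmus of non-lactating cow D at 34.2 CPM. In the order of the 12 condition means the 6 isthmus conditions (59.4 to 71.1 CPM) came before the 6 ampulla conditions (21.1 to 30.5 CPM). The step between the regions, from 59.4 ± 10.01 CPM in the non-lactating ipsilateral isthmus to 30.5 ± 6.25 CPM in the contralateral ampulla of heifers, was the only step between neighbours that was larger than both SDs.

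On the ipsilateral side GADD45A was higher in the isthmus in 10 of 10 animals, by 1.20 to 2.002 on the log2 scale. The fit over all 3 metabolic groups gave a log2 fold change of 1.49 ± 0.13 (SE, edgeR fit), and the regions did not overlap. On the contralateral side it was higher in the isthmus in 14 of 14 animals, by 0.60 to 1.87, with a log2 fold change of 1.26 ± 0.12. Without the 4 mismatched libraries the ipsilateral value was 1.61 ± 0.13. Regions differed for much of the transcriptome. In these fits 50.3% of 15276 genes passed the threshold on the ipsilateral side and 43.5% of 15387 on the contralateral side. Genes higher in the isthmus made up 24.5 and 21.5%, genes lower there 25.8 and 22%, and a rise in the isthmus at least as large as that of GADD45A was fitted for 4.50 and 6.21% of the genes. Both comparisons use isthmus libraries that also served in the choice of the members, so these regional values are a description without a test.

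GADD45B, the member induced by TGF-beta and NF-kappaB signalling, was low in every tissue, with counts of 1 to 51 per library. Its mean was 5.41 ± 2.35 CPM in the isthmus and 2.72 ± 1.84 CPM in the ampulla (SD, n = 28 libraries each). The highest condition was the ipsilateral isthmus of lactating cows at 8.002 ± 0.65 CPM (7.35, 7.54, 8.45 and 8.66 CPM), followed by the same tissue of non-lactating cows at 6.80 ± 2.44 CPM. The lowest was the contralateral ampulla of heifers at 1.90 ± 0.96 CPM. No neighbours in the order of the 12 means differed by more than the larger of their SDs, so the order within the middle of the range is not resolved by these animals.

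On the ipsilateral side GADD45B rose in the isthmus by 1.27 ± 0.25 on the log2 scale (SE, edgeR fit), and it was higher there in 9 of 10 animals. The exception was heifer E, with 3.73 CPM in the isthmus and 5.15 CPM in the ampulla. Of the 14 isthmus libraries 8 lay above the highest ampulla library. Without the mismatched libraries the log2 fold change was 1.17 ± 0.24. These isthmus libraries carried the side differences by which the members were chosen, so the ipsilateral values are a description without a test. The contralateral isthmus libraries served in this choice too, so the contralateral values are likewise a description. On the contralateral side the fitted difference was 0.61 ± 0.33, and GADD45B was higher in the isthmus in 10 of 14 animals. The difference was 0.78 ± 0.30 with the animal number as a block and 0.82 without lactating cow D. The contralateral ampulla of that cow held the highest GADD45B value of the series at 9.95 CPM.

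GADD45G, the cytokine-induced member, had the widest range. Its highest condition mean, 23.9 ± 15.2 CPM, belonged to the non-lactating ipsilateral isthmus, and its lowest was 0.75 ± 0.95 CPM in the contralateral isthmus of heifers. The 3 contralateral isthmus conditions were the lowest of the 12, at 0.75 to 1.87 CPM. The step up to the next condition, the contralateral ampulla of lactating cows at 3.38 ± 1.29 CPM, was the only step between neighbours that was larger than both SDs.

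In heifers the ipsilateral isthmus held 4.36, 30.1, 12.1, 4.02 and 11.4 CPM in animals A to E, against 0, 0.44, 2.39, 0.20 and 0.72 CPM in their contralateral isthmus. The sides did not overlap, and 4 of the 5 contralateral libraries held 3 counts or fewer. In non-lactating cows A to E the ipsilateral isthmus held 32.9, 11.55, 8.15, 44.7 and 21.999 CPM, against 1.15, 1.55, 0, 1.06 and 1.43 CPM contralaterally, again without overlap. In lactating cows A to D the values were 7.67, 11.0, 1.99 and 2.29 CPM ipsilaterally and 0.998, 3.11, 1.71 and 1.64 CPM contralaterally. Here the sides overlapped, since cows C and D differed little between sides. The 2 libraries at 0 were the contralateral isthmus of heifer A and of non-lactating cow C, where a count of 0 allows up to 1.04 and 0.56 CPM (3 counts, counting error only).

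GADD45G was thus higher in the ipsilateral isthmus in 14 of 14 animals, and 12 of the 14 ipsilateral libraries lay above the highest contralateral library. The fitted log2 fold changes were 3.84 ± 0.74 in heifers, 4.603 ± 0.62 in non-lactating cows and 1.60 ± 0.61 in lactating cows (SE). They rest on few contralateral counts, and the heifer value ranged from 3.12 to 5.03 when each animal was left out, with 5.03 without heifer C. Over all genes 10% of 13548 passed the test between these sides in heifers, 5.11% of 13869 in non-lactating cows and 0.187% of 13904 in lactating cows. Genes higher ipsilaterally made up 5.71, 2.94 and 0.144% in the same order, and genes lower ipsilaterally 4.34, 2.17 and 0.0432%. This contrast was used to choose the members, and nothing is read from these shares.

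**Figure D2:**
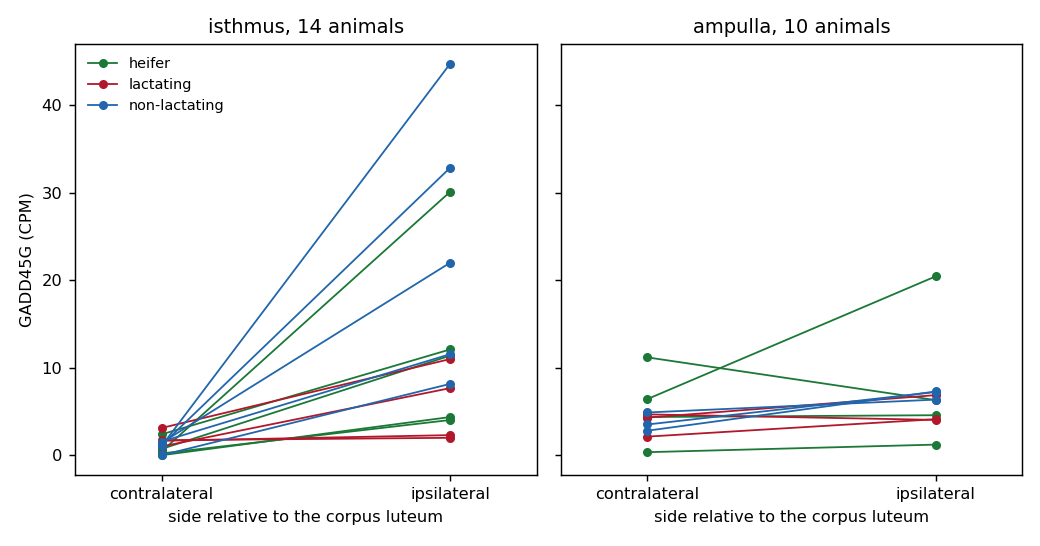
CPM of GADD45G on the contralateral and ipsilateral side (x axis), with a line for each animal, in the isthmus (left, 14 animals) and the ampulla (right, the 10 animals whose libraries matched their number), coloured by metabolic group. All 14 isthmus lines rise towards the ipsilateral side, to 44.7 CPM in non-lactating cow D and only to 1.99 and 2.29 CPM in lactating cows C and D, while 8 of the 10 ampulla lines rise.

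The other members behaved differently in the same contrast. GADD45B was higher in the ipsilateral isthmus in 5 of 5 non-lactating cows (log2 fold change 1.19 ± 0.31) and 4 of 4 lactating cows (0.67 ± 0.34), but in 2 of 5 heifers (-0.11 ± 0.37). In non-lactating cows its ipsilateral values were 4.00 to 9.66 CPM and its contralateral values 2.06 to 3.56 CPM, without overlap. GADD45A was higher ipsilaterally in 5 of 14 animals, with log2 fold changes of 0.01 ± 0.17 in heifers, -0.10 ± 0.22 in non-lactating cows and -0.17 ± 0.16 in lactating cows.

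In the ampulla, whose sides were not used to choose the members, the question was whether the family also differed with the location relative to the CL. No member passed the test in any metabolic group (edgeR quasi-likelihood test and DESeq2), and 2 of the 9 values had an unadjusted p under 0.05. Over all genes that unadjusted cut was met by 1253 of 13626 in heifers, 1523 of 13726 in non-lactating cows and 594 of 13938 in lactating cows. Few genes of any kind passed after adjustment, 0% in heifers, 0.0947% in non-lactating cows and 0% in lactating cows. GADD45G had log2 fold changes towards the ipsilateral side of 0.65 ± 0.76, 0.90 ± 0.35 and 0.79 ± 0.44 in heifers, non-lactating and lactating cows (adjusted p = 0.85, 0.36 and 1.0). The heifer value rests on heifer C, with 20.4 CPM ipsilaterally and 6.41 CPM contralaterally, and it was -0.048 without that animal. GADD45A had -0.52 ± 0.18, -0.18 ± 0.24 and -0.25 ± 0.23 (adjusted p = 0.43, 0.84 and 1.0). GADD45B had 0.71 ± 0.45, -0.25 ± 0.60 and -0.86 ± 0.67 (adjusted p = 0.67, 0.92 and 1.0). Without the mismatched libraries, and in the same order of groups, the values were 0.79, 0.76 and 0.54 for GADD45G, -0.44, -0.41 and -0.41 for GADD45A and 0.65, -0.18 and -0.61 for GADD45B (edgeR, adjusted p = 0.63 to 1.0).

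A fit of the ampulla over all 3 metabolic groups was added after the values had been seen, and in it 4.99% of 15270 genes passed. No member was among them. GADD45G had a log2 fold change of 0.78 ± 0.34 (adjusted p = 0.19), GADD45A of -0.32 ± 0.13 (adjusted p = 0.15) and GADD45B of -0.09 ± 0.36 (adjusted p = 0.93). With the animal number as a block GADD45G passed, at 0.81 ± 0.22 (adjusted p = 0.030), and GADD45A was at -0.33 ± 0.10 (adjusted p = 0.058), but this block joins different animals for the 4 mismatched libraries. With the block and without these libraries neither passed, at 0.60 ± 0.27 for GADD45G (adjusted p = 0.26) and -0.40 ± 0.11 for GADD45A (adjusted p = 0.066). Without the mismatched libraries, and without the block, the values were 0.71 ± 0.38 for GADD45G (adjusted p = 0.34) and -0.42 ± 0.13 for GADD45A (adjusted p = 0.075). Among the 10 animals with matched libraries GADD45G was higher ipsilaterally in 8 and GADD45A was lower ipsilaterally in 9. The side difference did not differ detectably between metabolic groups for any member (edgeR interaction test, adjusted p = 1.0 for each), and 0% of genes passed that test.

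The regional difference of GADD45G had a different sign on each side of the animal. On the contralateral side it was lower in the isthmus in 13 of 14 animals, with means of 1.17 ± 0.90 CPM in the isthmus and 4.08 ± 2.62 CPM in the ampulla (SD, n = 14 libraries each). The log2 fold change was -1.82 ± 0.44, and the regions overlapped, with heifer D at 0.35 CPM and heifer B at 1.18 CPM in the ampulla. On the ipsilateral side the means were 14.6 ± 12.99 CPM in the isthmus and 7.06 ± 4.63 CPM in the ampulla. The log2 fold change was 0.85 ± 0.37, or 0.86 ± 0.42 without the mismatched libraries, and GADD45G was higher in the isthmus in 6 of 10 animals. These were all 3 non-lactating cows with matched libraries, 2 of 4 heifers and 1 of 3 lactating cows. The isthmus libraries of both comparisons are those whose GADD45G levels served in the choice of the members, so these regional values are a description without a test. The difference between the sides in the regional effect was not tested, because it contains the contrast used to choose the members.

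**Figure D3:**
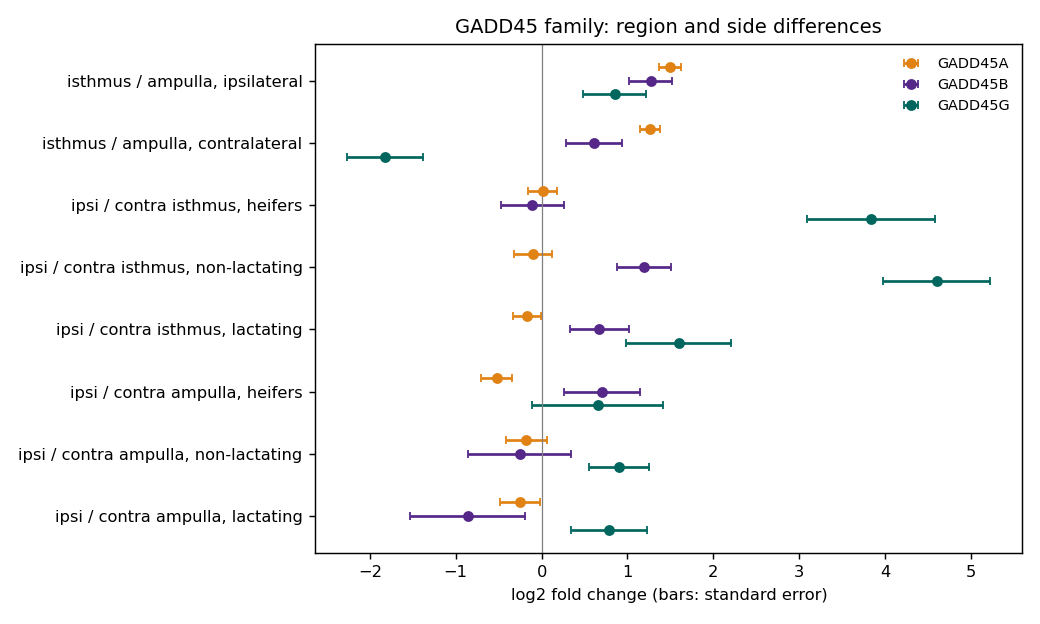
Log2 fold changes (x axis) of GADD45A, GADD45B and GADD45G between regions and between sides, from the edgeR fits, with bars of 1 SE. GADD45A lies at 1.49 and 1.26 between the regions and near 0 between the sides of the isthmus, and GADD45G lies at 3.84, 4.603 and 1.60 between the sides of the isthmus and at -1.82 between the contralateral regions. The isthmus side values and all regional values are a description without a test.

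Some markers of cell types passed the test between regions and between sides. Between the regions 50.3% of all genes passed ipsilaterally and 43.5% contralaterally, with 25.8 and 22% lower in the isthmus and 24.5 and 21.5% higher. All 10 ciliated markers were lower in the contralateral isthmus and 9 of 10 in the ipsilateral isthmus than in the ampulla, with summed levels of 3342 to 5288 CPM (ipsilateral isthmus), 3628 to 5235 CPM (contralateral isthmus), 4698 to 7069 CPM (ipsilateral ampulla) and 4637 to 7672 CPM (contralateral ampulla). Of the 7 epithelial markers 6 were higher in the ipsilateral isthmus, and 3 were higher and 1 lower in the contralateral isthmus. Of the 5 endothelial markers 4 were lower in the isthmus on both sides, with summed levels of 13.5 to 124.1 CPM in the isthmus and 99.6 to 417.1 CPM in the ampulla. Of the smooth muscle markers 4 were tested and 1 was higher and 1 lower in the isthmus on each side, the higher one being MYH11, which encodes a smooth muscle myosin, with log2 fold changes of 5.13 ± 0.32 ipsilaterally and 4.89 ± 0.39 contralaterally. The summed smooth muscle level was 91.997 to 182.6 CPM in the isthmus and 72.6 to 154.7 CPM in the ampulla. Of the fibroblast markers 2 were higher and 1 lower in the isthmus, of 5 tested ipsilaterally and 6 contralaterally. The higher ones were the matrix proteoglycan genes LUM (6.32 ± 1.07 and 6.79 ± 1.07) and DCN (2.70 ± 0.81 and 3.71 ± 0.93), which were at 0 in 27 and 24 libraries of the series. The summed fibroblast level was 10.04 to 358.5 CPM in the isthmus and 14.5 to 181.3 CPM in the ampulla, and 0 of 7 leukocyte markers passed on either side. Among the secretory markers with the largest changes past the threshold, MSX1 was higher in the isthmus on both sides (3.43 ± 0.32 and 4.08 ± 0.30). LTF was higher there ipsilaterally (3.99 ± 0.44), while PAX8 was lower ipsilaterally (-0.19 ± 0.07) and KRT7 contralaterally (-0.52 ± 0.13). Between the sides of the isthmus 10% of all genes passed in heifers, 5.11% in non-lactating cows and 0.187% in lactating cows. Of 6 secretory markers 3 were higher ipsilaterally in heifers, 2 in non-lactating cows and 0 in lactating cows. They were led by LTF, which encodes the iron-binding protein lactoferrin, with log2 fold changes of 3.05 ± 0.75 in heifers and 3.45 ± 0.52 in non-lactating cows. The summed secretory level was 3357 to 17070 CPM ipsilaterally and 458.1 to 19154 CPM contralaterally. Of the epithelial markers 3 were higher and 1 lower ipsilaterally in heifers and 2 higher in non-lactating cows. KRT7 is on both the secretory and the epithelial list and is counted among the higher genes of each in both groups. Of 10 ciliated markers 1, CAPS, was higher in each of these groups. Of 5 tested endothelial markers 1, EMCN, was higher in non-lactating cows (3.05 ± 0.80), while the median log2 fold change of the 5 was -0.43. The part of these cell types in the values of the GADD45 genes was not tested.

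The 3 metabolic groups were compared within each tissue to see whether lactation or calving went with the level of the family. No member passed the test in any of the 12 comparisons (edgeR quasi-likelihood test and DESeq2), in which 0% of genes passed except for 0.0073% (1 gene) in the ipsilateral isthmus when non-lactating cows were set against heifers. Of 33 values 2 had an unadjusted p under 0.05, both from the isthmus, whose values also served in the choice of the members. Over all genes 497 to 1619 per comparison met that unadjusted cut, of 13512 to 14077 tested. GADD45G was below the filter on low counts in the 3 comparisons of the contralateral isthmus. GADD45A stayed within log2 fold changes of -0.25 to 0.14 in all 12 comparisons (adjusted p = 0.67 to 1.0). The comparisons of the ipsilateral ampulla include the mismatched libraries, some of which resembled an animal of another group. No member passed in them without these libraries either.

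The isthmus values of the members also served in their choice, so the isthmus comparisons below are no independent test. In the ipsilateral isthmus GADD45G was lower in lactating than in non-lactating cows by a log2 fold change of -2.06 ± 0.60 (edgeR, adjusted p = 0.78). The groups overlapped, since lactating cow B (11.0 CPM) lay within the range of the non-lactating cows (8.15 to 44.7 CPM), while the other lactating cows (1.99 to 7.67 CPM) lay below it. The value ranged from -2.56 to -1.69 when each animal was left out. Values of the same tissue were -1.10 ± 0.65 for lactating cows against heifers (adjusted p = 0.57) and 0.95 ± 0.55 for non-lactating cows against heifers (adjusted p = 0.54). The former was -0.47 and the latter 1.56 without heifer B, and the latter 0.58 without non-lactating cow D. For GADD45B the contralateral isthmus of non-lactating cows, at 2.06 to 3.56 CPM, was compared with that of heifers, at 3.02 to 7.55 CPM, giving -0.83 ± 0.30 (edgeR, adjusted p = 0.50). Against the same non-lactating cows the lactating cows had 0.78 ± 0.37 (adjusted p = 1.0). In the ipsilateral isthmus lactating cows had a GADD45B log2 fold change of 0.73 ± 0.34 against heifers (adjusted p = 0.48), which was 1.11 without heifer B. In the contralateral ampulla GADD45B was at 1.16 ± 0.63 in lactating cows against heifers, 0.65 ± 0.74 in lactating against non-lactating cows and 0.51 ± 0.62 in non-lactating cows against heifers (adjusted p = 0.94, 0.97 and 1.0). Both values of the lactating cows include cow D at 9.95 CPM, and without that cow they were 0.30 against heifers and -0.20 against non-lactating cows. The value of non-lactating cows against heifers ranged from 0.28 to 0.80 when each animal was left out.

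Of the proteins that GADD45 members bind, MAP3K4, CDKN1A and PCNA did not pass the test in any of 21 comparisons of sides, regions and metabolic groups. MAP3K4 was at a median of 112 to 123 CPM in the 4 tissues, with log2 fold changes of -0.24 to 0.13. CDK1 passed only between the ipsilateral regions, where it was lower in the isthmus by a log2 fold change of -0.55 ± 0.19 (adjusted p = 0.017). CCNB1, the cyclin B1 that forms a complex with CDK1, stood apart. Its median was 4.63 CPM in the ipsilateral ampulla (0.88 to 10.5 CPM) and 382.4 CPM in the ipsilateral isthmus (137.0 to 530.2 CPM), a log2 fold change of 6.30 ± 0.27 (adjusted p = 3.7e-17), and the contralateral regions gave 7.24 ± 0.32 (adjusted p = 4.1e-17). Whether all of these reads came from CCNB1 transcripts was not tested. None of the other listed genes of the G2 and M phases that were tested (9 ipsilaterally and 11 contralaterally) was higher in the isthmus, and CDK1 and CDC25C were lower on the ipsilateral side. The nuclear receptor PPARA was higher in the isthmus by 0.46 ± 0.16 ipsilaterally and 0.79 ± 0.19 contralaterally (adjusted p = 0.014 and 0.00089). In all 2 of 7 tested partners were higher and 1 lower in the ipsilateral isthmus, and 2 were higher contralaterally, beside shares of 50.3 and 43.5% over all genes. Between the sides of the isthmus 0 of 7 passed, beside 10% of all genes in heifers, 5.11% in non-lactating cows and 0.187% in lactating cows.

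Among the p38 and JNK kinases 4 of 12 were higher and 2 lower in the ipsilateral isthmus than in the ampulla, beside 50.3% of all genes. MAPKAPK2, a kinase activated by p38, rose by 0.68 ± 0.07, and MAPK10, which encodes the JNK family member JNK3, fell by 0.60 on the log2 scale. On the contralateral side 2 of 12 were higher and 3 lower, beside 43.5%. MAP3K5, also known as ASK1, was lower in the ipsilateral than in the contralateral isthmus, with log2 fold changes of -0.67 ± 0.19 in heifers and -0.71 ± 0.18 in non-lactating cows (edgeR, adjusted p = 0.043 and 0.044). It was the 1 of 12 kinases to pass in each group, beside 10 and 5.11% of all genes.

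Of 17 tested p53 target genes 0 were higher and 6 lower in the ipsilateral isthmus, beside 50.3% of all genes, and 3 were higher and 5 lower in the contralateral isthmus, beside 43.5%. The median log2 fold changes were -0.10 and 0.05, against -0.02 and -0.01 over all genes. SESN1, a sestrin that restrains mTORC1 signalling, fell in the isthmus with log2 fold changes of -1.19 ± 0.17 ipsilaterally and -0.92 ± 0.17 contralaterally. The kinase gene PLK2 had log2 fold changes of -1.31 ± 0.23 and -0.92 ± 0.20. Between the sides of the isthmus RRM2B and CCNG1 were lower ipsilaterally in heifers (-0.70 ± 0.15 and -0.62 ± 0.17, 2 of 17 beside 10% of all genes). In either group of cows 0 of 17 passed, beside 5.11% of all genes in non-lactating and 0.187% in lactating cows.

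Of the immediate early genes, which mark acute stimulation, 6 of 12 were lower and 0 higher in the ipsilateral isthmus, beside 50.3% of all genes, and 6 of 14 were lower and 1 higher in the contralateral isthmus, beside 43.5%. MYC had a log2 fold change of -1.82 ± 0.19 ipsilaterally and -1.04 ± 0.18 contralaterally, and EGR1 had -1.35 ± 0.34 and -1.05 ± 0.38. MYC was also lower in the ipsilateral than in the contralateral isthmus of heifers (-1.44 ± 0.21, edgeR, adjusted p = 0.0056), 1 of 11 beside 10% of all genes. In non-lactating cows IER3 was lower (-1.22 ± 0.25) and ZFP36, whose protein destabilizes cytokine mRNAs, was higher (0.81 ± 0.16), 2 of 11 beside 5.11%. Of 12 tested upstream transcription factors 0 passed between the sides of the isthmus in heifers and 2 in non-lactating cows, beside 10 and 5.11% of all genes. In non-lactating cows HIF1A (0.68 ± 0.15) and STAT3, the factor downstream of many cytokine receptors, (0.42 ± 0.09) were higher ipsilaterally. The median log2 fold change of the 12 factors there was -0.04, against 0.006 over all genes. Between the regions HIF1A was higher in the isthmus on both sides (0.62 ± 0.11 and 0.46 ± 0.11), while EGR1 and ATF3 of the same list were lower on both.

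Of the genes of the unfolded protein and integrated stress response 4 of 11 were higher and 2 lower in the ipsilateral isthmus, and 2 of 12 were higher and 2 lower in the contralateral isthmus, beside the same shares of all genes. The ipsilateral values were led by the endoplasmic reticulum chaperones DNAJB9 at 0.97 ± 0.09 and HSPA5 at 0.66 ± 0.10. In heifers the same chaperone genes were higher on the ipsilateral side of the isthmus (0.77 ± 0.12 and 0.70 ± 0.18, 2 of 11 beside 10% of all genes). In either group of cows 0 of 11 genes passed, beside 5.11% of all genes in non-lactating and 0.187% in lactating cows. Of 11 tested genes of DNA demethylation and base excision repair 3 were higher and 3 lower in the ipsilateral isthmus, beside 50.3% of all genes. In the contralateral isthmus 2 were higher and 2 lower, beside 43.5%. The scaffold gene XRCC1 (-0.40 ± 0.10 and -0.49 ± 0.10) and, ipsilaterally, the DNA ligase gene LIG3 (-0.47 ± 0.09) were lower, while TET1 exceeded its ampulla level in the isthmus (0.35 ± 0.11 ipsilaterally and 0.86 ± 0.13 contralaterally). It was lower in the ipsilateral than in the contralateral isthmus of heifers (-0.52 ± 0.12) and non-lactating cows (-0.70 ± 0.17), as was TET2 (-0.40 ± 0.08 and -0.48 ± 0.12), and the glycosylase gene MBD4 was higher in heifers (0.62 ± 0.14). These made up 1 higher and 2 lower of 11 in heifers, beside 10% of all genes, and 2 lower of 11 in non-lactating cows, beside 5.11%. No listed gene passed between the sides of the isthmus in lactating cows, where 0.187% of all genes passed, and of 130 listed genes tested between metabolic groups 0 passed in the 12 comparisons.

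Finally, the genes most like each member were sought over the 12 condition means of log2 CPM, among 12770 genes. These correlations are a description over points that share libraries and animals. GADD45A was followed most closely by ARHGEF28 (Pearson r = 0.99), ENPP1, PKDCC, PLXNA3 and CLIC5 (r = 0.986), all high in the isthmus on both sides. GADD45B was followed by LONRF2 (r = 0.93), RIMKLB, FMNL1, RPS6KA3 and DNAJC25 (r = 0.92), which were highest in the ipsilateral isthmus of lactating or non-lactating cows. GADD45G was followed by COX20 (r = 0.96), ELOVL1, DDX1, MTHFD1L and KXD1 (r = 0.93), all with their highest mean in the non-lactating ipsilateral isthmus and their lowest in the contralateral isthmus. The range of these 5 genes was narrower than that of GADD45G. COX20 spanned 2.90 to 3.83 and DDX1 6.54 to 6.84 in log2 CPM over the 12 means, against -0.10 to 4.34 for GADD45G. Among the members themselves r was 0.76 between GADD45A and GADD45B, -0.24 between GADD45A and GADD45G and 0.09 between GADD45B and GADD45G.

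**Figure D4:**
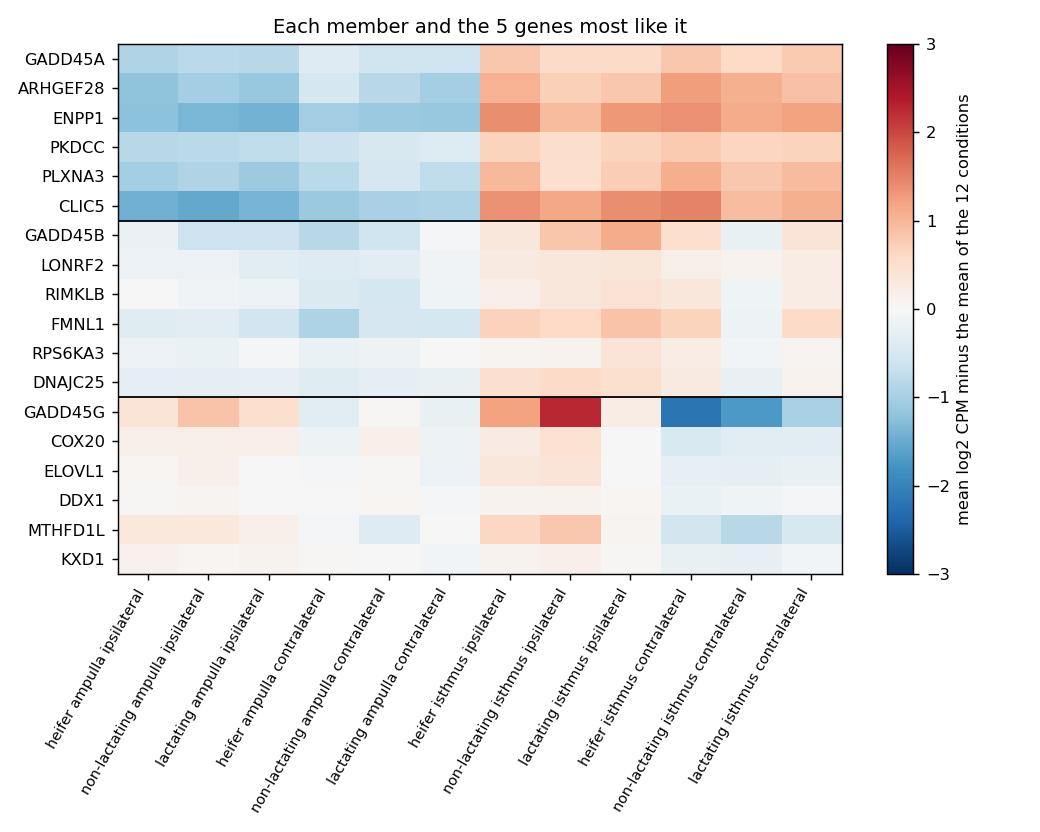
Mean log2 CPM of each member and of the 5 genes most like it (rows) in the 12 conditions (columns), shown as the difference from the mean of the conditions (colour scale). GADD45A and its 5 genes are high in all 6 isthmus conditions, and GADD45G and its 5 genes peak in the non-lactating ipsilateral isthmus and are low in the contralateral isthmus.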

How the data were processed

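RNA was measured in 56 libraries of scraped oviduct epithelium. Per the study's methods, stranded single-end reads (NuGEN Encore Complete, Illumina) were mapped by the authors with TopHat2 (version 2.0.13) to Btau_4.6.1 and counted with htseq-count (HTSeq version 0.6.1), strand-specific and intersection-strict. The table deposited by the authors holds raw counts of reads on genes, with no normalization. The 5 summary lines of the counter were left out, and 8.66 to 13.7% of counted alignments lay on genes. Column names give the group and an animal number. The number names the animal, and 52 of the 56 libraries matched it while 4 did not. As a check, both sides of a region were correlated over 10616 genes centred on their condition, which gave a median r of 0.34 for libraries of the same number (-0.043 to 0.66, 26 pairs, 20 over 0.1).

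Counts were scaled by TMM (factors 0.89 to 1.05) in edgeR (version 4.0.16, R version 4.3.3), filtered within each fit by filterByExpr (minimum count 10) and tested by the quasi-likelihood F test, with Benjamini-Hochberg adjustment over all genes tested and a threshold of 0.05. The scripts were tested on simulated data. Log2 CPM used a prior count of 2, SE is the log2 fold change over the root of F, and 3 counts were taken as the floor. Sides were compared within a region and metabolic group, regions within a side with the metabolic group as a term, and metabolic groups within a tissue. The main fits of sides and regions had no term for the animal, so tissues of the same animal were treated as independent. All 3 members passed the filter in every comparison except GADD45G between metabolic groups in the contralateral isthmus. Alternatives were RLE size factors, DESeq2 (version 1.42.0), no filter, the animal number as a replicate block, each animal left out, the mismatched libraries left out and all groups in 1 fit. The pooled ampulla fit, without and with the block, was added after seeing the data. A mismatched library is one that correlated best with the other libraries of another animal over 200 genes. These were the genes that varied most between animals relative to within animals, with animals taken by the numbers of the table. Agreement of a library with its own number is thus partly built in. The other 52 libraries matched their own animal at r of at least 0.48.

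The members and the gene lists were chosen with earlier results of these data known. Of 155 listed genes 147 were found by symbol. Named genes are the members, the partners MAP3K4, CDKN1A, PCNA and CDK1, up to 3 genes per list and comparison with the largest change past the threshold, and the 5 genes most correlated with each member over the 12 condition means, without LOC numbers. Single member values between metabolic groups are named from a log2 fold change of 0.5. No sequences or coordinates were used.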

Additional observations from a re-analysis of the deposited data

Results flagged for a closer look

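Of 36 sets of libraries (3 members in 12 conditions), 3 held a library far from the others of its condition, where chance alone marks about 1 in 20. GADD45A was at 111.9 CPM in the ipsilateral isthmus of heifer B, and the next highest heifer was at 69.8 CPM. The same library held the highest GADD45B (9.47 CPM) and GADD45G (30.1 CPM) values of the ipsilateral heifer isthmus. GADD45B was at 1.93 CPM (9 counts) in the contralateral isthmus of lactating cow C, and the next lowest lactating cow was at 5.81 CPM. GADD45G was at 20.4 CPM in the ipsilateral ampulla of heifer C, and the next highest heifer was at 6.29 CPM.

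In the ampulla GADD45B was higher on the ipsilateral side in 4 of 4 heifers with matched libraries and lower in 3 of 3 non-lactating cows, with a median difference of 0.17 on the log2 scale over 10 animals (0.49 in heifers and -0.51 in non-lactating cows). The interaction test over all 3 metabolic groups did not pass (edgeR, adjusted p = 1.0).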

How the results depend on the processing

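The alternatives were run for the comparisons of sides, of regions and, for members at a log2 fold change of 0.5 or more, of metabolic groups, and no animals were left out of the pooled ampulla fit or the interaction test. Leaving out an animal turned GADD45G in the heifer ampulla (-0.048 to 1.33, lowest without heifer C) and, without lactating cow D, GADD45B in the lactating ampulla (-1.29 to 0.12) and between lactating and non-lactating cows in the contralateral ampulla (-0.20 to 0.93). The isthmus side difference of GADD45G in heifers ranged from 3.12 to 5.03 with each animal left out, and near 0 GADD45A (-0.18 to 0.09) and GADD45B (-0.35 to 0.05) between the same sides changed sign. In the pooled ampulla fit GADD45B was at 0.063 with the replicate block and 0.017 without the mismatched libraries, and the block raised the number of members past the threshold from 0 to 1 (GADD45G), which returned to 0 without the mismatched libraries. The contralateral regional value of GADD45B also moved, as given above, and for none of these changes was the cause tested. Outside the regional and isthmus side comparisons the block changed no other call of a member. RLE size factors and the absence of a filter changed none of these calls. Depth limits GADD45G most, with 6 of 14 contralateral isthmus libraries at 3 counts or fewer.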
